A study of Mus musculus with 18 samples.

Results

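The GIMAP GTPases (GTPases of immunity-associated proteins) are a family of lymphocyte proteins, and their 8 listed mouse genes, Gimap1, Gimap3, Gimap4, Gimap5, Gimap6, Gimap7, Gimap8 and Gimap9, were followed here through T cell stimulation and tolerance. They were taken by name, through their Ensembl identifiers, and are 8 of the 37991 genes with counts. The 18 RNA-seq libraries were made from CD4+ T cells of the spleen of Tg4-H2u mice, in which a transgenic TCR recognises a peptide of myelin basic protein. The study compared naive (N) with tolerized (T) cells, each at rest and after stimulation, with 3 replicates in each of 6 groups. The paper describes the N cells as predominantly naive.

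All donors were male or female Tg4-H2u mice aged 6 weeks or more, so every group carries the same receptor transgene. The paper describes the CD4+ T cell repertoire of these mice as skewed, with most cells bearing the V-beta type of the transgene. Tolerized mice had received 7 subcutaneous doses of the 4Y peptide at intervals of 3 to 4 days, and naive mice PBS on the same schedule. The peptide dose was raised stepwise to a maximum and then held there. Cells at rest (N0 and T0) came from mice given a last injection of PBS, and Ag-stimulated cells (NAg and TAg) from mice given 80 µg of the peptide, in both cases 2 h before the spleen was taken. The NPI and TPI cells were treated in culture for 2 h with PI, that is 20 ng/ml PMA and 2 µM of the calcium ionophore A23187, which act downstream of the TCR. No library here held cells cultured without PI, so the effects of PI and of culture cannot be told apart. Nothing in the labels says how many mice went into a library.

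GIMAP proteins carry a septin-like GTPase domain, sit largely on intracellular membranes and are found mainly in lymphocytes. The family is best known for keeping mature T cells alive. Loss of Gimap5 depletes peripheral T cells in rodents, Gimap1 is needed for the upkeep of mature T and B cells, and Gimap6 binds the autophagy protein GABARAPL2.

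In the genome build used for counting (NCBIM37, also called mm9) the 8 genes lay in a single cluster on chromosome 6, from 48597233 to 48716518, a span of 119.3 kb. Their order was Gimap8, Gimap9, Gimap4, Gimap6, Gimap1, Gimap7, Gimap5 and Gimap3, with 6 genes on the plus strand and 2, Gimap6 and Gimap3, on the minus strand. All are protein-coding, with combined exons of 906 bp in Gimap3 to 3700 bp in Gimap8. The gene models were not separate throughout. The model of Gimap1 begins just upstream of that of Gimap7 and ends within that of Gimap5, and it shared 81 bp of exon with Gimap7, 109 bp with Gimap5 and, on the opposite strand, 103 bp with Gm3345. How reads in shared bases were assigned is not stated, and values of Gimap1, Gimap5 and Gimap7 are uncertain to that extent. Gimap3 and Gimap5 are close paralogs, and how reads that match both were treated in counting is not stated, so their values are uncertain to that extent too.

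The 250 bp upstream of the RefSeq start site (GRCm38.p6) are shown for the 4 genes with the largest single responses below, all others being described by their motif counts. Capitals mark matches, on either strand, to the motifs searched. Gimap5 lies on the plus strand (chr6:48745947-48746196), with GGGTGG and AGGAAGT in capitals, Gimap6 on the minus strand (chr6:48708245-48708494) with TTTTCC, Gimap9 on the plus strand (chr6:48675885-48676134) with CCACCC, and Gimap7 on the plus strand (chr6:48718371-48718620) with ACCACA.
Gimap5: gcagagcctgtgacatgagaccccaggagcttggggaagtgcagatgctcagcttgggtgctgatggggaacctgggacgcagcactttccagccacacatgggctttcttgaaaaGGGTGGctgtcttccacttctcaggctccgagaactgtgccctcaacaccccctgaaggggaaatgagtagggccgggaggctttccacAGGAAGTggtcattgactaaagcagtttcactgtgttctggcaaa
Gimap6: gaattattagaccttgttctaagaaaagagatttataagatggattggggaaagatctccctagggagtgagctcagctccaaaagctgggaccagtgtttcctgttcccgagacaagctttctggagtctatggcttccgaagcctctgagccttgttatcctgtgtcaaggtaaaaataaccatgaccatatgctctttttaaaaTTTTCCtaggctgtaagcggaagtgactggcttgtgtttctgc
Gimap9: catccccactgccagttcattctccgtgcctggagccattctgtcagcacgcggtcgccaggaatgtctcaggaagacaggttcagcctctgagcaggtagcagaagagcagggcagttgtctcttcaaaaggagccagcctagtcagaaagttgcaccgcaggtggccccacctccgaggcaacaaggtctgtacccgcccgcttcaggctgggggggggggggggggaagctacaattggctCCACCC
Gimap7: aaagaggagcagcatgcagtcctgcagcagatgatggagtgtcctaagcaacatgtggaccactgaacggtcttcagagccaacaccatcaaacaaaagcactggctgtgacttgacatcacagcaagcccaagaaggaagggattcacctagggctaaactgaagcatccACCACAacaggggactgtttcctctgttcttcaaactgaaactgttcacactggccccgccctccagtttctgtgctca

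Motifs of 7 factor families active in T cells were counted in such windows for all 8 genes, each as a fixed run of letters read on both strands. The KLF letters GGGTGG, which occurred in 28.1% of 32851 promoter windows, were found at 5 of the 8 genes (Gimap8, Gimap9, Gimap4, Gimap5 and Gimap3). The 8 genes had 9 windows, of which 5 held these letters. Gimap8 had 2 windows, and its match lay only in window 2, whose start site is inside the counted model. NFAT letters (GGAAAA, 20.4% of windows) were found at 3 genes (Gimap6, Gimap1 and Gimap3), as were RUNX letters (TGTGGT, 14.0%) at Gimap4, Gimap1 and Gimap7. The ETS letters AGGAAGT (7.69%) were found at Gimap5 alone. No window of the family held the letters used for AP-1 (TGANTCA, 6.75%), TCF/LEF (CTTTGA, 13.8%) or EGR (GTGGGCG, 7.02%). Some of these letter runs can overlap on a sequence, and a match is no evidence that a factor binds. The Gimap4, Gimap5, Gimap6, Gimap7, Gimap8 and Gimap9 windows adjoin the starts of the counted gene models, whereas the RefSeq start of Gimap1 lies far inside the counted model and that of Gimap3 lies 4332 bp upstream of it.

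Total counts ranged from 10758571 to 24119489 per library, and the 8 genes took 0.162% to 0.273% of them. Each of 12 T cell identity markers, Cd4 included, had at least 508 reads in every library, and their summed levels were 40710 to 99380 normalized counts (here and below, counts scaled to a common library size). Markers of other cells were present. The summed neutrophil markers (13 genes) were 88.3 to 199 normalized counts in N0 and 2003 to 3536 in T0, and the B cell markers (8 genes) ranged from 1132 to 8659 over all libraries. Y-linked genes had at least 5111 reads in all NPI and TPI libraries, in T0 replicates 1 and 2 and in TAg replicate 3, and at most 18 in all others. Naive cells after PI therefore differ from naive cells at rest and after Ag in the sex of the mice too, and sex and PI cannot be told apart within naive cells. T0 replicate 3, the resting tolerized library without Y-linked reads, was the highest of its group for 8 of 8 GIMAP genes.

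At rest, transcripts of the family were abundant and unequal. Levels of different genes are compared per exon length, as RPKM (reads per kilobase of exon, scaled to library size), with mean ± SD over 3 libraries. In N0, Gimap3, the close paralog of Gimap5, stood first at 386 ± 18.5 RPKM. Gimap4, which has been linked to the execution of T cell apoptosis, followed at 234 ± 16.1, and Gimap6 at 182 ± 21.5. Gimap8, whose protein carries several GTPase domains, came to 105 ± 7.92 RPKM. The other genes lay lower, at 42.1 ± 4.04 for Gimap9, 39.1 ± 1.95 for Gimap1, 31.6 ± 7.02 for Gimap7 and 22.02 ± 1.80 for Gimap5. The first 4 places were the same in T0, with Gimap3 at 405 ± 62.7 RPKM and Gimap6 at 131 ± 17.4. Counted over the longest transcript alone, 38 of 48 places in this order of 8 genes in 6 groups were unchanged.

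The makeup of the family differed between stimuli. The summed RPKM of the 8 genes had group means between 849 ± 50.4 in TAg and 1078 ± 26.8 in NPI. Without scaling to exon length the sums were further apart, from 21824 ± 1196 normalized counts in TAg to 37692 ± 955 in NPI, and without Gimap6 they were 19286 ± 323 in N0 and 13715 ± 343 in NPI. Within the summed RPKM, the share of Gimap6 was 17.5% ± 2.22 in N0, 18.5% ± 0.762 in NAg and 46.6% ± 0.742 in NPI. In tolerized cells it was 13.1% ± 0.418 in T0, 10.5% ± 0.611 in TAg and 44.1% ± 0.831 in TPI. Gimap3 went the other way, from 37.04% ± 1.48 in N0 to 14.0% ± 0.646 in NPI and from 40.3% ± 0.260 in T0 to 21.8% ± 0.944 in TPI. In both cell states, then, the leading transcript per exon length was Gimap3 at rest and after Ag and Gimap6 after PI. The bulk values cannot tell apart fewer cells that express a gene and less RNA of it per cell.

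**Figure D1:**
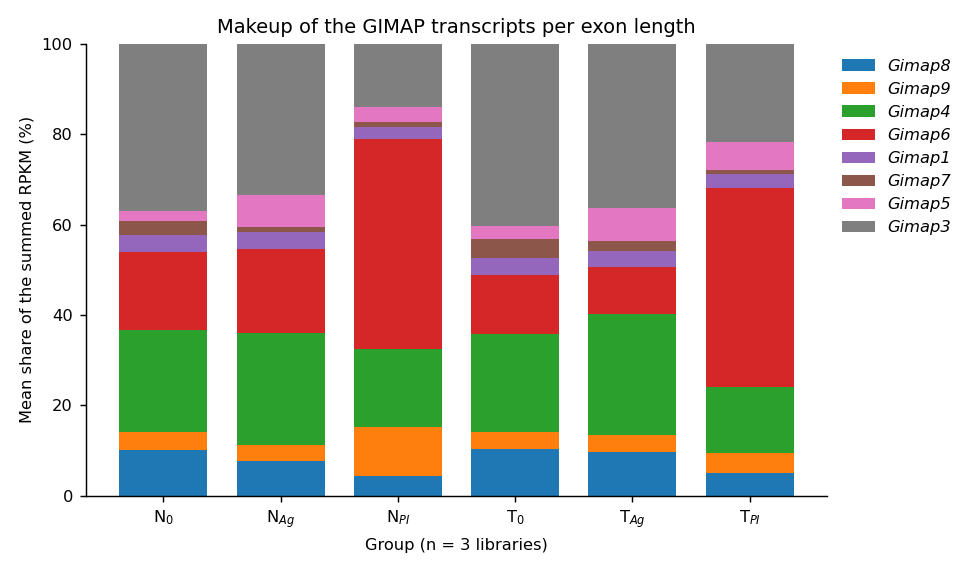
Mean share (%, y axis) of each GIMAP gene in the summed RPKM of all 8, for the 6 groups (x axis, 3 libraries each). The Gimap6 segment is largest after PI, at 46.6% in NPI and 44.1% in TPI, and the Gimap3 segment is largest in the other 4 groups.

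Ag changed few GIMAP genes in naive cells. Gimap5 rose, Gimap7 and Gimap8 fell, and the other 5 genes did not pass the test. That makes 1 of 8 higher and 2 of 8 lower at an adjusted p under 0.05, where 32.1% of the 17240 tested genes were called higher and 33.4% lower. The median log2 fold change was -0.11 over the 8 genes and 0.00 over all tested genes. In tolerized cells 1 of 8 was higher (29.9% of all genes) and 6 of 8 were lower (29.8%), namely Gimap8, Gimap9, Gimap6, Gimap1, Gimap7 and Gimap3, with a median of -0.33 against -0.05 over all genes. The response itself was called different between the cell states for Gimap5 and Gimap6 alone (interaction contrast, below). The unequal counts at the threshold therefore do not by themselves show a broader fall in tolerized cells.

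Gimap5 showed the strongest rise after Ag. Its normalized counts were 689, 773 and 661 in N0 and 2357, 2198 and 2388 in NAg. In T0 they were 936, 907 and 1047, and in TAg 1952, 2040.0 and 2002. Stimulated and resting libraries did not overlap in either cell state, as was so for 68.1% of all genes in naive and 64.5% in tolerized cells. The log2 fold change was 1.71 ± 0.08 (SE) in naive cells (3.27-fold, adjusted p = 9.58e-16) and 1.05 ± 0.08 in tolerized cells (2.07-fold, adjusted p = 1.08e-11). The rise was smaller in tolerized cells by 0.66 ± 0.11 on the log2 scale (interaction contrast, adjusted p = 8.54e-05), and this held in 12 of 12 fits that each left out a library.

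Gimap7, whose product stimulates the GTPase activity of related GIMAP proteins, showed the strongest fall. Its normalized counts were 681, 442 and 522 in N0 and 198, 209 and 179 in NAg, a log2 fold change of -1.49 ± 0.25 (2.81-fold lower, adjusted p = 0.0001). In tolerized cells they were 608, 516 and 1098 in T0 and 259, 337 and 329 in TAg, with a log2 fold change of -1.26 ± 0.24 (adjusted p = 0.000331). All stimulated values lay below all resting values, but the resting values varied more, relative to their mean, than those of any other GIMAP gene. Without T0 replicate 3, the library with 1098, the change in tolerized cells was -0.90, the smallest among the fits leaving out a library.

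Gimap8 fell less, by 0.45 ± 0.08 on the log2 scale in naive cells (adjusted p = 2.82e-05) and by 0.33 ± 0.08 in tolerized cells (adjusted p = 0.00116). Its libraries ranged from 5004 to 5762 normalized counts in N0 and from 3668 to 4044 in NAg. Gimap6 responded differently in each cell state. It stood at 7499, 9411 and 9095 normalized counts in N0 and 9251, 8952 and 8493 in NAg, which overlapped (log2 fold change 0.038 ± 0.089, adjusted p = 0.728). In tolerized cells it was 5962, 5606 and 7186 in T0 and 4424, 4280.2 and 4035 in TAg, without overlap (log2 fold change -0.56 ± 0.09, adjusted p = 7.4e-06). This difference between the responses was itself called, at -0.60 ± 0.13 (adjusted p = 0.00126).

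Smaller falls after Ag were called in tolerized cells for Gimap3 (-0.39 ± 0.09, adjusted p = 0.000517), Gimap1 (-0.33 ± 0.10, adjusted p = 0.00486) and Gimap9 (-0.30 ± 0.12, adjusted p = 0.0356). The call for Gimap9 was kept in 3 of 6 fits leaving out a library, and was lost without T0 replicate 3, where the change was -0.16, without TAg replicate 2 or without TAg replicate 3. In naive cells Gimap3 (-0.20 ± 0.09, adjusted p = 0.051) and Gimap9 (-0.25 ± 0.12, adjusted p = 0.0663) missed the threshold although their libraries did not overlap, and were called in 3 and 2 of 7 other settings. Gimap4 was not called in either state, with changes of 0.09 ± 0.09 and 0.06 ± 0.09. Within libraries of like Y-linked reads, the 7 changes called in tolerized cells kept their direction both in those with such reads (1 TAg against 2 T0) and in those without (2 TAg against 1 T0). Each of these splits rests on a single library in 1 group, and the sizes differed, as with Gimap7 at -0.77 with and -1.88 without Y-linked reads and Gimap9 at -0.27 and -0.52.

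**Figure D2:**
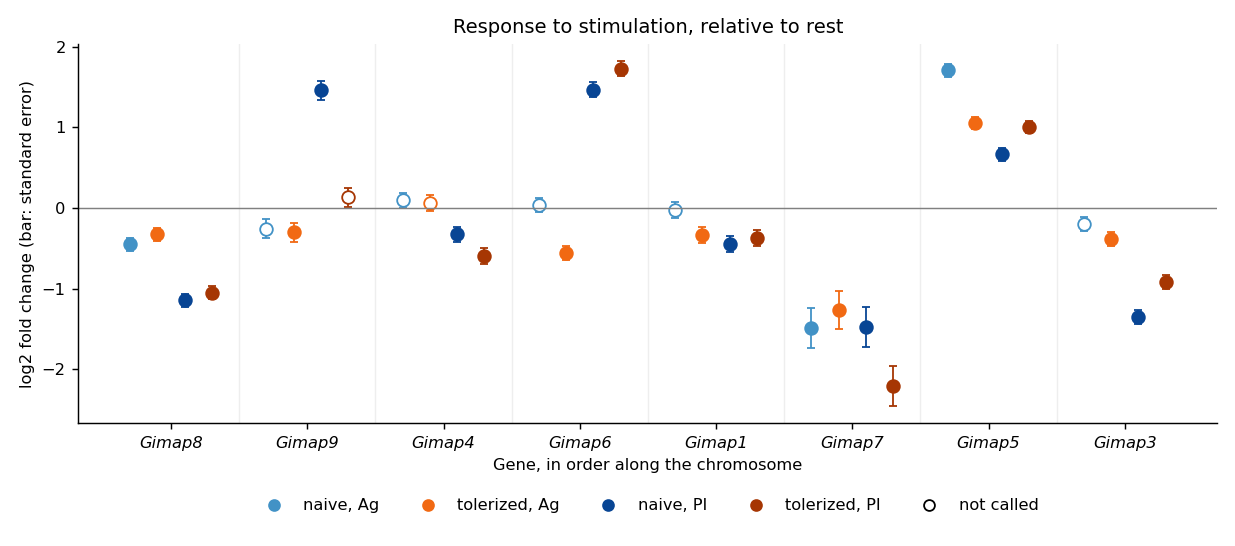
Log2 fold change against rest (y axis, bars are SE) of the 8 GIMAP genes (x axis, in chromosomal order) after Ag and after PI in naive and tolerized cells, with open points for changes not called at an adjusted p under 0.05. Gimap5 lies above 0 in all 4 comparisons. Below 0 in all 4 lie Gimap7 and Gimap8 and, with open points after Ag in naive cells, Gimap1 and Gimap3. Gimap6 and Gimap9 reach 1.47 and 1.46 after PI in naive cells.

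PI changed nearly the whole family. In naive cells 3 of 8 genes rose (Gimap5, Gimap6 and Gimap9, with 28.6% of all genes called higher) and 5 of 8 fell (32.7% of all genes called lower). In tolerized cells 2 of 8 rose (Gimap5 and Gimap6, 32.0% of all genes), 5 of 8 fell (36.3%) and Gimap9 was not called. Median log2 fold changes were -0.38 in naive and -0.48 in tolerized cells, beside -0.06 and -0.10 over all genes. In tolerized cells 10 of 13 neutrophil markers fell too, from sums of 2003 to 3536 normalized counts in T0 to 450.0 to 767 in TPI. In naive cells 7 of 13 fell and 2 rose, with low sums in both groups, 88.3 to 199 in N0 and 71.8 to 190.2 in NPI. Of 11 macrophage and monocyte markers, 6 fell and 0 rose in naive cells, and 4 fell and 1 rose in tolerized cells. The effect of these shifts on the GIMAP genes was not tested. Libraries did not overlap between PI and rest for 66.4% of all genes in naive and 72.5% in tolerized cells.

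In absolute level the largest change was that of Gimap6. Its normalized counts were 23577, 23468 and 24884 in NPI and 21888, 20660.4 and 19684 in TPI. Every one of these libraries was above the highest library of any other group, 9411 in N0. Relative to rest the log2 fold change was 1.47 ± 0.09 in naive cells (2.77-fold, adjusted p = 1.01e-12) and 1.73 ± 0.09 in tolerized cells (3.32-fold, adjusted p = 2.94e-14), and these responses were not called different (0.26 ± 0.13, adjusted p = 0.155). Set against Ag, PI gave 2.69-fold more Gimap6 in naive and 4.89-fold more in tolerized cells (log2 fold changes 1.43 ± 0.09 and 2.29 ± 0.09, adjusted p = 6.44e-13 and 2.12e-16).

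Gimap9 separated naive from tolerized cells after PI. It stood at 2748, 2620.4 and 2428 normalized counts in NPI and at 1133, 869 and 896 in TPI. All 15 libraries outside NPI lay between 652 and 1133. The log2 fold change against rest was 1.46 ± 0.12 in naive cells (2.75-fold, adjusted p = 9.44e-10) and 0.13 ± 0.12 in tolerized cells (adjusted p = 0.316). The difference between the responses was -1.33 ± 0.16 (adjusted p = 8.13e-06), was called in 12 of 12 fits leaving out a library and in 7 of 7 other settings, and ranged over the latter from -1.53 to -1.32.

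Gimap5 rose after PI as well, to 1068, 1201 and 1101 normalized counts in NPI and 2038, 1790.1 and 1988 in TPI. The log2 fold change was 0.67 ± 0.08 in naive cells (adjusted p = 6.53e-08) and 1.01 ± 0.08 in tolerized cells (adjusted p = 2.14e-11). In naive cells the rise after PI was smaller than that after Ag (NPI against NAg, -1.04 ± 0.08, adjusted p = 9.23e-12), and in tolerized cells no difference between the stimuli was called (-0.043 ± 0.075, adjusted p = 0.638).

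Among the genes that fell, Gimap3 went from 5036, 4651 and 4629 normalized counts in N0 to 1787, 1807 and 2021 in NPI (log2 fold change -1.35 ± 0.09, adjusted p = 4.57e-12). In tolerized cells it went from 4645, 4482 and 5899 in T0 to 2814, 2475 and 2669 in TPI (-0.92 ± 0.09, adjusted p = 2.24e-09). Neither pair of groups overlapped. Gimap8 fell to a like extent in both states, to 2312, 2351 and 2541 normalized counts in NPI and 2678, 2420.1 and 2413 in TPI. Its changes were -1.14 ± 0.08 and -1.05 ± 0.08 (adjusted p = 1.55e-11 and 3.87e-11), with a difference of 0.09 ± 0.11 that was not called (adjusted p = 0.64). Gimap7 fell to 186, 195 and 211 normalized counts in NPI and 168, 172 and 142 in TPI. These are log2 fold changes of -1.47 ± 0.25 (adjusted p = 0.00012) and -2.21 ± 0.25 (adjusted p = 1.79e-06). The difference between these Gimap7 responses was not called (interaction contrast, -0.73 ± 0.35, adjusted p = 0.17).

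Gimap1 and Gimap4 fell by less. Gimap1 ranged from 1101 to 1201 normalized counts in N0 and from 789 to 910.2 in NPI, and Gimap4 from 5404 to 6115 and from 4311 to 4976. The log2 fold changes in naive cells were -0.44 ± 0.10 for Gimap1 (adjusted p = 0.00035) and -0.32 ± 0.09 for Gimap4 (adjusted p = 0.00481). In tolerized cells they were -0.37 ± 0.10 (adjusted p = 0.00153) and -0.60 ± 0.10 (adjusted p = 6.27e-06). With a term for Y-linked reads in the model, the calls in naive cells were lost, at -0.15 (adjusted p = 0.288) and -0.11 (adjusted p = 0.478). The call for Gimap4 was also lost with marker scores (-0.22, adjusted p = 0.217). The other 6 calls in naive cells were kept with the term for Y-linked reads, but it was estimated from the tolerized groups alone and takes the same difference between the sexes to hold in naive cells. Among tolerized libraries with Y-linked reads (3 TPI against 2 T0), all 7 called changes kept their direction, with ratios of the means of -0.23 for Gimap1 and -0.44 for Gimap4 on the log2 scale. Gimap9 in tolerized cells was called higher with that term (0.26, adjusted p = 0.0235) and without T0 replicate 3 (0.27, adjusted p = 0.0237).

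The stimuli were also set against each other. NPI differed from NAg for 2 of 8 genes higher (Gimap6 and Gimap9, 33.5% of all genes called) and 5 of 8 lower (Gimap8, Gimap4, Gimap1, Gimap5 and Gimap3, 31.0%). TPI differed from TAg for 2 of 8 higher (the same pair, 31.5%) and 4 of 8 lower (Gimap8, Gimap4, Gimap7 and Gimap3, 32.3%). For these calls the libraries did not overlap, as for 68.5% and 68.7% of all genes. The falls of Gimap1 and Gimap4 in NPI against NAg were lost with the term for Y-linked reads (-0.12 and -0.20, adjusted p = 0.373 and 0.163), and that of Gimap4 also with scores of erythroid and myeloid markers (-0.26, adjusted p = 0.288). In TPI against TAg the calls for Gimap7 and Gimap9 were lost with those marker scores (-0.74 and 0.32, adjusted p = 0.153 and 0.145). Gimap9 was 3.28-fold higher in NPI than in NAg (log2 fold change 1.71 ± 0.12, adjusted p = 5.18e-11) and 1.35-fold higher in TPI than in TAg (0.43 ± 0.12, adjusted p = 0.00322).

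Across the 6 groups, each gene had its own order of levels. From the highest group mean to the lowest, Gimap6 ran NPI, TPI, NAg, N0, T0 and TAg, and neighbours in this order were apart in every library except NAg and N0. Gimap5 ran NAg, TAg, TPI, NPI, T0 and N0, where only TAg and TPI overlapped. Gimap9 had NPI alone at the top, and the other 5 groups overlapped with their neighbours. Gimap3 ran T0, N0, NAg, TAg, TPI and NPI, with overlap between T0 and N0 and between NAg and TAg.

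The remaining genes fell into pairs or runs of groups. Gimap8 had both resting groups above both Ag groups and those above both PI groups, with overlap between cell states within each pair. Gimap7 ran T0, N0, TAg, NPI, NAg and TPI, with overlap between T0 and N0 and between NPI and NAg. Gimap4, at 6268 ± 218 normalized counts in NAg, 5870.4 ± 404 in N0, 5704 ± 495 in TAg, 5459 ± 949 in T0 and 4688 ± 342 in NPI, overlapped between each of these neighbours, and TPI at 3611 ± 189 lay apart. Gimap1 had N0 (1136 ± 56.6), NAg (1117 ± 52.9) and T0 (1106 ± 187) overlapping, apart from TAg (878 ± 82.0), TPI (852 ± 60.6) and NPI (835 ± 65.7), which overlapped in turn.

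**Figure D3:**
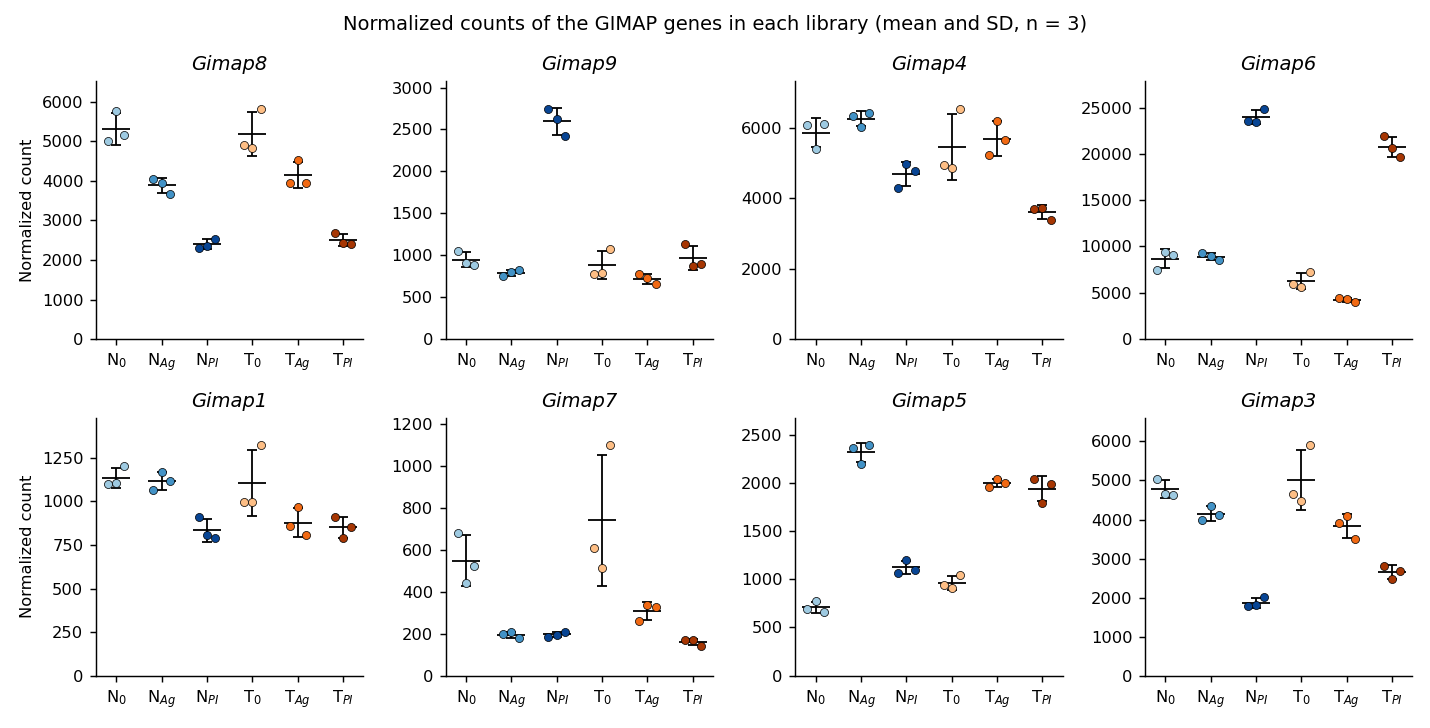
Normalized counts (y axis, from 0) of each GIMAP gene in the 18 libraries, as points, with the mean and SD of the 3 libraries in each group (x axis). Gimap6 is highest in both PI groups, Gimap9 in NPI alone, Gimap5 in NAg, and T0 replicate 3 (the rightmost point of T0) is the highest of its group in all 8 panels.

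Tolerized and naive cells were compared in each condition. At rest 1 of 8 genes was higher in T0 than in N0 (Gimap5, with 8.42% of all genes called higher) and 1 of 8 lower (Gimap6, 12.0% called lower), and medians were -0.035 over the family and -0.08 over all genes. The libraries of both groups lay apart, without overlap, for 35.0% of all genes. Gimap5 was 1.36-fold higher in T0 (log2 fold change 0.44 ± 0.08, adjusted p = 0.000257), with all 3 T0 libraries, from 907 to 1047 normalized counts, above the highest of N0, 773. Gimap6 was 1.39-fold lower (-0.47 ± 0.09, adjusted p = 0.000576), its highest T0 library (7186) being below its lowest N0 library (7499). With scores of erythroid and myeloid markers in the model the estimates were 0.44 and -0.49, with adjusted p of 0.0636 and 0.0569. In the same libraries 12 of 13 neutrophil markers were called higher in T0. The groups also differed in part in the sex of the mice, since T0 replicates 1 and 2 carried Y-linked reads and no N0 library did. Among libraries without such reads (1 T0 against 3 N0) the log2 ratios of the means were 0.57 for Gimap5 and -0.27 for Gimap6. These ratios rest on a single T0 library, and the effect of sex on this comparison was not tested apart.

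After Ag, none of the 8 genes was called higher in TAg than in NAg by the edgeR test (20.9% of all genes were) and 3 of 8 were called lower (18.5%). Gimap6 showed the main difference, 2.096-fold lower in TAg (-1.07 ± 0.09, adjusted p = 3.09e-09), with 4035 to 4424 normalized counts against 8493 to 9251, without overlap (as for 47.7% of all genes). In the same comparison 13 of 13 neutrophil markers were called higher, with sums of 2488 to 4541 normalized counts in TAg and 157 to 429 in NAg, and 7 of 11 macrophage and monocyte markers were called lower and 1 higher, with sums of 1071 to 1514 and 697 to 2570. With scores of erythroid and myeloid markers in the model, the 3 calls were kept. The myeloid score averaged neutrophil with macrophage and monocyte markers, most of which went opposite ways in this comparison. It ranged from -0.067 to 0.82 in NAg and from 0.33 to 0.60 in TAg. This fit therefore did not account for the neutrophil difference, whose effect on these genes was not tested. Gimap1 was lower by a smaller amount (-0.35 ± 0.10, adjusted p = 0.00659). The difference of Gimap5 (-0.21 ± 0.07, adjusted p = 0.0266) was called in 2 of 6 fits leaving out a library, being lost without NAg replicate 1 or 3 or TAg replicate 1 or 3. Gimap7 was higher in each TAg library (259 to 337) than in any NAg library (179 to 209), with a log2 fold change of 0.66 ± 0.26 that missed the threshold (adjusted p = 0.0576) and passed it in DESeq2 (adjusted p = 0.0153). Of the libraries compared, TAg replicate 3 alone carried Y-linked reads. Among those without such reads (2 TAg against 3 NAg) the log2 ratios of the means were -1.03 for Gimap6, -0.29 for Gimap1 and -0.21 for Gimap5.

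After PI, 2 of 8 genes were higher in TPI than in NPI (Gimap5 and Gimap3, 18.2% of all genes) and 2 of 8 lower (Gimap9 and Gimap4, 19.7%). All 6 libraries compared carried Y-linked reads, and for 50.5% of all genes the groups did not overlap. Gimap9 was 2.69-fold lower in TPI (-1.43 ± 0.12, adjusted p = 8.59e-09) and Gimap5 1.73-fold higher (0.79 ± 0.08, adjusted p = 1.58e-08). Gimap3 was 1.42-fold higher (0.50 ± 0.09, adjusted p = 8.48e-05) and Gimap4 1.30-fold lower (-0.38 ± 0.10, adjusted p = 0.00276). Thus Gimap5 was higher in tolerized cells at rest and after PI but not after Ag, where its estimate lay below 0.

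**Figure D4:**
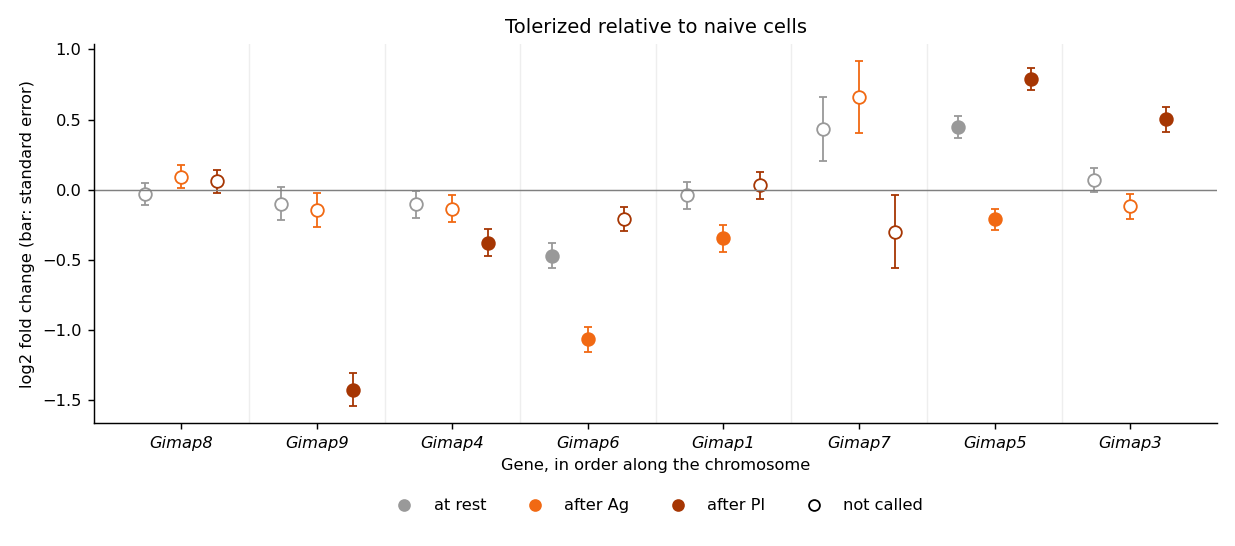
Log2 fold change of tolerized against naive cells (y axis, bars are SE) for the 8 GIMAP genes (x axis, in chromosomal order) at rest, after Ag and after PI, with open points for differences not called at an adjusted p under 0.05. The lowest points are Gimap9 after PI (-1.43) and Gimap6 after Ag (-1.07), and the highest is Gimap5 after PI (0.79).

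Whether naive and tolerized cells responded unequally was tested by interaction contrasts. For Ag, none of the 8 genes had a response called higher in tolerized cells (14.6% of all genes had) and 2 of 8 were called lower (Gimap5 and Gimap6, 7.09%). For PI, 2 of 8 were called higher (Gimap3 and Gimap5, 12.7%) and 1 of 8 lower (Gimap9, 7.52%). The PI difference of Gimap3 was 0.43 ± 0.13 (adjusted p = 0.0157) and that of Gimap5 was 0.34 ± 0.11 (adjusted p = 0.0257). Neither was called with a term for Y-linked reads (0.25 and 0.29, adjusted p = 0.121 and 0.101). The call for Gimap5 was also kept in only 5 of 12 fits leaving out a library, being lost without N0 replicate 2, NPI replicate 1 or 3, T0 replicate 1 or 2, or TPI replicate 1 or 3.

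Across the 18 libraries the family split. Gimap8, Gimap4, Gimap1, Gimap7 and Gimap3 followed the mean pattern of the 8 genes (Pearson r from 0.72 for Gimap7 to 0.93 for Gimap1), whereas Gimap5, Gimap6 and Gimap9 ran against it (r = -0.33, -0.50 and -0.26). The closest pair was Gimap8 and Gimap3 (r = 0.94), which lie at opposite ends of the cluster. The adjacent genes Gimap7 and Gimap5 had r = -0.68. The 18 points share groups and library scaling, and the mean includes each gene itself, so these are descriptions. Among 11547 other genes, the 10 most like the mean pattern were Mfng (r = 0.88), which encodes a glycosyltransferase acting on Notch, Prpsap2 (0.87), 2810422O20Rik, Zfp420, Zfp369, Zfp787, Tet3, Ncln, Zfp82 and Trac (0.84), the constant segment of the TCR alpha chain. Least like it were Gad1 (-0.94), Il1r2, Cxcl16, Egr4 and Gtf3c5 (-0.87). Only 3 of those 10 genes remained among the first 10 by Spearman's rho.

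The genes around the cluster were described in the same way. Of 19 other genes within 200 kb, 11 were tested. In naive cells 1 rose and 2 fell after Ag, and 2 rose and 4 fell after PI, where 32.1% and 33.4% of all genes were called higher and lower after Ag and 28.6% and 32.7% after PI. Lrrc61, upstream of Gimap8, fell by 2.38 on the log2 scale after Ag (SE 0.13, adjusted p = 3.9e-14) and by 1.04 after PI (SE 0.12, adjusted p = 3.2e-08). Repin1 rose after Ag (1.22 ± 0.22, adjusted p = 2.46e-05). Gm3345, the antisense transcript inside the Gimap1 span, stood at 459.5 ± 51.3 normalized counts in N0 and 497 ± 22.4 in NAg. It fell to 190.2 ± 18.4 after PI (-1.27 ± 0.13, adjusted p = 1.13e-08), and since it shares exon bases with Gimap1, their reads could not be fully told apart if strand was not used in counting.

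**Figure D5:**
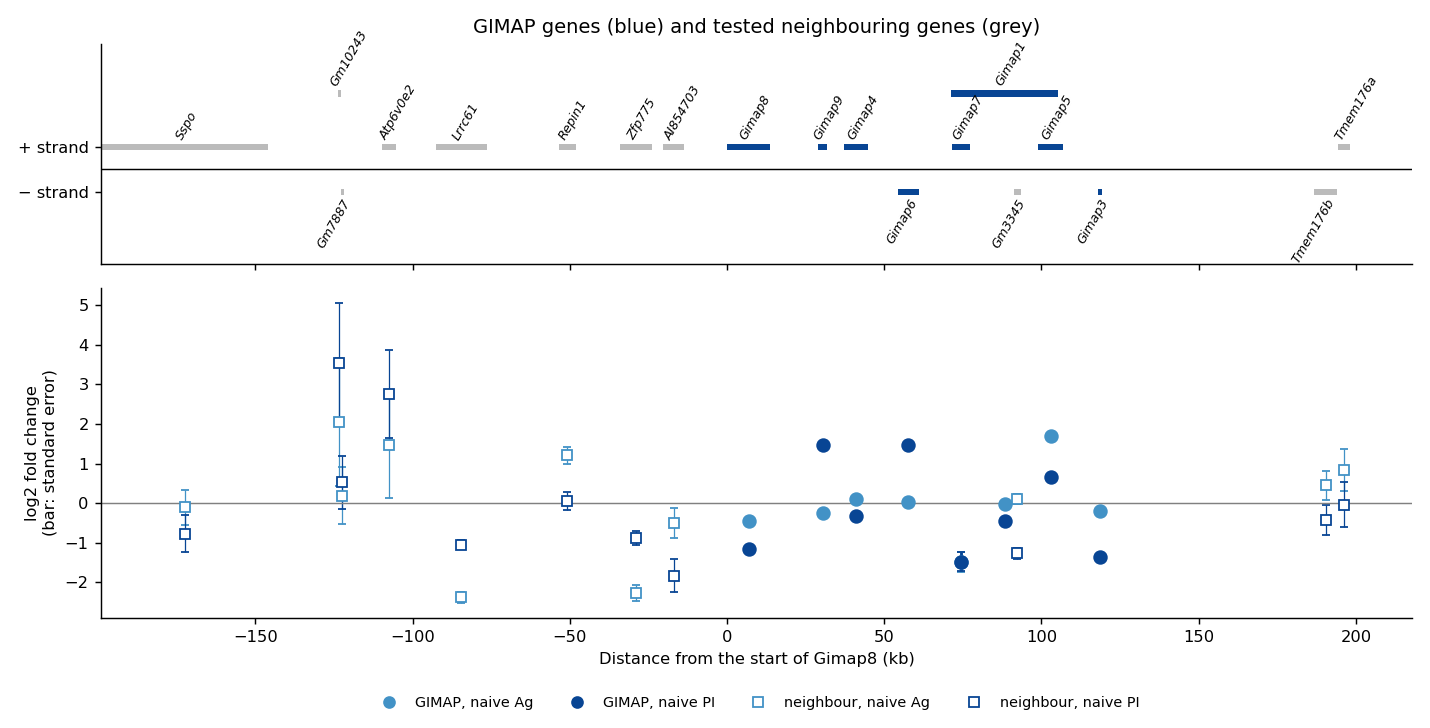
Upper part: spans of the 8 GIMAP genes (blue) and the 11 tested genes around them (grey) by strand, against distance from the start of Gimap8 (kb). Lower part: log2 fold change (y axis, bars are SE) after Ag and PI in naive cells at each gene's midpoint, circles for GIMAP genes and squares for the others. After PI, neighbouring GIMAP genes lie on opposite sides of 0 except Gimap1 and Gimap7, both below 0. After Ag, several neighbours share a side, among them Gimap8 and Gimap9 below 0. Both Gimap7 circles coincide near -1.5.

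Genes tied to GIMAP function were described beside the family. Of 16 such survival and autophagy genes, 7 rose and 7 fell after Ag in naive cells, and 9 rose and 3 fell after PI, with a median log2 fold change of 0.49 in the latter. Over all genes 32.1% rose and 33.4% fell after Ag in naive cells, and 28.6% rose and 32.7% fell after PI. Bcl2l1, which encodes the anti-apoptotic protein BCL-XL, rose by 4.15 ± 0.14 after Ag (adjusted p = 2.05e-15) and by 2.60 ± 0.13 after PI (adjusted p = 3.98e-12). Bcl2, encoding the related survival protein BCL2, fell by 0.70 after Ag in naive cells (SE 0.18, adjusted p = 0.00382). Bcl2l11, which encodes the pro-apoptotic protein BIM, rose by 2.65 ± 0.11 after Ag in naive cells and by 0.71 ± 0.10 in tolerized cells (adjusted p = 1.29e-15 and 3.49e-06).

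Among the autophagy genes of that list, Gabarapl2, whose product binds GIMAP6, fell by 0.98 after Ag in naive cells (SE 0.08, adjusted p = 5.42e-11) and by 0.62 in tolerized cells (SE 0.08, adjusted p = 1.7e-07), and after PI stood at 0.17 ± 0.08 and -0.012 ± 0.075, neither called. Map1lc3b, encoding the autophagosome protein LC3B, fell by 1.04 after Ag (SE 0.10, adjusted p = 2.18e-09) and rose by 0.66 ± 0.10 after PI (adjusted p = 2.4e-06), both in naive cells. Gabarapl1 rose in all 4 comparisons with rest, by 0.59 to 2.08. Il7r, the receptor for the survival cytokine IL-7, fell in all 4, by 1.13 to 1.37. In tolerized cells 9 of the 16 rose and 6 fell after Ag (29.9% and 29.8% of all genes), and 8 rose and 5 fell after PI (32.0% and 36.3%).

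Quiescence and naive homing genes, which mark resting T cells, gave a further point of reference. After Ag in naive cells 10 of 14 fell and 2 rose, with a median log2 fold change of -1.84, and in tolerized cells 11 fell and 3 rose (median -1.53). Over all genes 33.4% fell and 32.1% rose in naive cells, and 29.8% fell and 29.9% rose in tolerized cells. After PI in naive cells 9 rose and 5 fell (median 0.47), and in tolerized cells 7 rose and 6 fell (median 0.31), where 28.6% of all genes rose and 32.7% fell in naive cells and 32.0% rose and 36.3% fell in tolerized cells. S1pr1, the receptor that lets T cells leave lymphoid organs, fell by 4.10 after Ag in naive cells (SE 0.13, adjusted p = 2.09e-16), and Klf2, a transcription factor of quiescent T cells, fell by 2.78 (SE 0.32, adjusted p = 4.04e-06). Slfn2 and Foxp1 went the other way in that comparison (1.24 ± 0.14 and 0.42 ± 0.08), and Btg1 and Btg2 were not called. After PI, Klf2 rose in naive cells (1.48 ± 0.29) and was not called in tolerized cells (0.0048 ± 0.29). The fall of Gimap7 by 1.49 was the GIMAP change after Ag in naive cells that came nearest to the median of -1.84.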

How the data were processed

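RNA-seq of 18 libraries of splenic CD4+ T cells was used, grouped by the labels into 6 groups of 3. The authors deposited raw read counts per Ensembl gene: rRNA-depleted reads were aligned with TopHat2 2.1.1 to mm9 and counted with HTSeq 0.9.1, whose overlap and strand settings are not given in the sources used here. Total counts were 10758571 to 24119489 (median 12268935) per library, and 1 line per library that names no gene was left out.

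Counts were normalized by TMM and tested with edgeR 4.0.16 in R 4.3.3, by the quasi-likelihood F test with Benjamini-Hochberg adjustment, as 11 contrasts of 6 group means fitted to all libraries. Genes averaging at least 3 normalized counts in some group were kept (17240, with all 8 GIMAP genes), and a gene was called at an adjusted p under 0.05. RPKM used the union of exons (GENCODE models on NCBIM37) and TMM library sizes. Likeness was Pearson's r of log2 levels over 18 libraries among genes averaging at least 50 normalized counts. The study describes the libraries of a group as biological replicates, and the number of mice behind each is not given. Promoter sequence came from RefSeq (GRCm38.p6), and its coordinates are not those of the counted models.

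Named genes were the 8 GIMAP genes, other genes within 200 kb, the 10 genes most like and 5 least like the mean pattern, and members of marker and pathway lists. The members and lists were chosen with earlier results of these data known. Alternatives were DESeq2 1.42.0, its size factors, no filter, only the groups compared, a replicate block, a term for Y-linked reads, terms for erythroid and myeloid marker scores, each library left out in turn, and other exon lengths for RPKM. The edgeR step was tested on simulated data.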

Additional observations from a re-analysis of the deposited data

Results flagged for a closer look

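The response to stimulation differed between naive and tolerized cells, by a test of the difference itself, for 5 combinations of gene and stimulus. For Ag, the log2 response in tolerized cells minus that in naive cells was -0.66 for Gimap5 and -0.60 for Gimap6. For PI it was 0.43 for Gimap3, 0.34 for Gimap5 and -1.33 for Gimap9. The PI values for Gimap3 and Gimap5 were not called with a term for Y-linked reads. With 3 libraries in each group, single outlying libraries were not tested for.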

How the results depend on the processing

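Of 88 tests of GIMAP genes, 52 were called, and no alternative turned the direction of a called change. Over the 7 other settings the call was kept 350 times and lost 14 times, and over the fits leaving out a library 328 and 14 times. With the replicate block all counts of called GIMAP genes and all calls of these genes were as without it, for example Gimap5 in NAg against N0 at 1.71. Same-numbered libraries, as deviations from their group means, correlated from -0.49 to 0.24. Differently numbered libraries were not compared in this way and the labels do not explain the numbers, so whether they mark shared batches was not tested. With only the groups compared, 4 genes were lower in NAg than in N0, 1 was higher in TAg than in NAg and 1 had a higher PI response in tolerized cells. With a term for Y-linked reads these counts were 4, 1 and 0, with 3 genes lower in NPI than in N0, 3 lower in NPI than in NAg and 2 with a lower PI response in tolerized cells. With marker scores 0 genes were called higher and 0 lower in T0 than in N0, and 1 was higher in TPI than in TAg. DESeq2 called 1 gene higher in TAg than in NAg. By Spearman's rho, 3 of the 10 most alike genes remained. The cause of these changes was not tested.

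Leaving out 1 library gave 2 to 4 genes lower in NAg than in N0 (4 without N0 replicate 2 or 3), 1 to 2 lower in T0 than in N0 (2 without T0 replicate 3), 0 to 1 higher in TAg than in NAg (1 without TAg replicate 1), 0 to 1 with a higher Ag response (1 without T0 replicate 3), 1 to 3 with a higher PI response and 1 to 2 with a lower PI response (2 without T0 replicate 2) in tolerized cells. A PI response higher for 1 gene only was found without N0 replicate 2, NPI replicate 1 or 3, T0 replicate 1 or 2, or TPI replicate 1 or 3.

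Estimates that changed sign were all of changes not called. With DESeq2 and with its size factors they were 0.030 in both cases for Gimap1 in NAg against N0, and -0.010 and -0.0089 for Gimap7 in NPI against NAg. With marker scores they were 0.055, 0.13, 0.011, 0.065, -0.0086 and 0.031 for Gimap1 in NAg against N0, Gimap1, Gimap8 and Gimap9 in T0 against N0, Gimap9 in TPI against T0 and the Ag difference of Gimap4. With only the groups compared they were 0.033 and 0.042 for Gimap1 and Gimap8 in T0 against N0, -0.013 for Gimap6 in NAg against N0, -0.051 for Gimap7 in NPI against NAg and -0.0076 for the PI difference of Gimap1. With a term for Y-linked reads, T0 against N0 gave 0.15, 0.028, 0.083 and 0.11 for Gimap1, Gimap4, Gimap8 and Gimap9, TPI against TAg gave 0.16 and 0.015 for Gimap1 and Gimap5, and the PI differences of Gimap1 and Gimap8 were -0.11 and -0.023.

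Leaving out a library gave Gimap1 from -0.10 to 0.0086 in NAg against N0, -0.19 to 0.028 in T0 against N0, -0.0089 to 0.10 in TPI against NPI and -0.10 to 0.034 in TPI against TAg. Gimap4 ran from -0.015 to 0.12 in NAg against N0, -0.043 to 0.19 in TAg against T0 and -0.10 to 0.14 in its Ag difference. Gimap3 ran from -0.072 to 0.14 and Gimap8 from -0.13 to 0.024 in T0 against N0, Gimap5 from -0.067 to 0.011 in TPI against TAg, Gimap6 from -0.11 to 0.077 in NAg against N0, Gimap7 from -0.056 to 0.068 in NPI against NAg, and Gimap9 from -0.11 to 0.14 in its Ag difference.

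In the RPKM order of the 8 genes, 38 of 48 places were kept with the longest transcript and 42 with exon bases that no other gene shares, a setting chosen after seeing the data. With 3 libraries a group, small changes in the lower genes, Gimap7 above all, were not measured precisely.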
